A study of Mus musculus with 15 samples.

Results

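p53 (gene Trp53) and 30 genes that regulate it or that it switches on were followed in 15 RNA-seq libraries of sorted mouse bone marrow progenitors. The 31 genes were listed by symbol, as the factor, its regulators and its targets for cell cycle arrest, apoptosis and repair. No measured value was a criterion, but the list was drawn up with earlier results of these data known. All 31 were found among the 23337 gene symbols of the count tables, and all 31 were among the 15181 genes kept for testing. The sort gave common myeloid progenitors (CMP, cells without lineage markers or Sca1, with CD117 and CD34, and low for CD16/32) and granulocyte-monocyte progenitors (GMP, the CD16/32-high cells of the same gate). For CMP, 4 libraries came from wild type (WT CMP) and 4 from the Trappc1 knockout (KO CMP). For GMP, 4 were wild type (WT GMP) and 3 knockout (KO GMP). All came from bone marrow, untreated. KO GMP libraries carry the numbers 1, 3 and 4, and library 2 was not used here. The deleted part of Trappc1, any Cre driver, the strain and the age were not known from the labels. Whether each library stands for its own mouse is not stated, and the p-values therefore describe the spread between libraries, part of which may be technical.

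p53 is a transcription factor that is kept at a low level by the ubiquitin ligase Mdm2 and its partner Mdm4, and that is stabilised after DNA damage, ribosomal stress and other insults. It then binds response elements near its targets and raises their transcription, which can halt the cell cycle through Cdkn1a (p21), start apoptosis through Bax, Bbc3 (Puma) and Pmaip1 (Noxa), or support repair. In blood stem and progenitor cells the pathway is known for limiting survival after stress. Because p53 is controlled mainly at the protein level, its activity is commonly read from its targets and not from the Trp53 transcript.

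Trappc1, a subunit of the TRAPP complexes that tether vesicles between the endoplasmic reticulum and the Golgi, was below the WT range in all 7 KO libraries, within either cell type. Levels are CPM, that is counts divided by the TMM-scaled library size. Trappc1 held 18.4, 26.2, 18.8 and 25.2 CPM in WT CMP libraries 1 to 4 and 5.56, 3.83, 11.7 and 13.4 CPM in KO CMP libraries 1 to 4. The GMP levels were 41.3, 37.03, 30.9 and 33.3 CPM in WT libraries 1 to 4 and 6.09, 24.1 and 25.2 CPM in KO libraries 1, 3 and 4. The KO CMP libraries 1 and 2 and KO GMP library 1 stood apart from the rest. They had the lowest Trappc1, and Xist, the RNA of the inactive X chromosome, measured 109 to 204 CPM in them against 0.0416 to 2.17 CPM in the other 12 libraries, while the Y-linked genes Ddx3y, Eif2s3y, Kdm5d and Uty were present in all 15. Summed over 9 stromal and endothelial markers, the level was 283 to 325 CPM in KO CMP 1 and 2, 153 to 154 in KO CMP 3 and 4 and 134 to 161 in WT CMP. In GMP the same sum was 233 CPM in KO GMP 1 against 105 to 111 in KO GMP 3 and 4 and 118 to 123 in WT GMP. The sum of 4 monocyte markers was 147 to 249 CPM in KO CMP 1 and 2 against 783 to 1204 in WT CMP, and 504 in KO GMP 1 against 2721 to 3146 in WT GMP. It was also below the WT ranges in KO CMP 3 and 4 (694 to 697) and in KO GMP 3 and 4 (2536 to 2540). What part these differences have in the results was not tested. WT libraries also parted by number, 1 and 2 from 3 and 4, so each KO effect is given for all libraries and within each of these number sets. Within numbers 1 and 2, the genotype and whatever else marks the 3 KO libraries cannot be told apart. KO GMP has 1 library in numbers 1 and 2, taken to vary as the rest do. In such bulk libraries a change in the mix of cells and a change of RNA per cell cannot be told apart. The sort genes Kit and Cd34 were present in every library, and Fcgr3, which encodes CD16, was higher in each GMP library (125 to 315 CPM) than in each CMP library (12.9 to 115 CPM). The 7 sort and progenitor markers summed to 4508 to 5129 CPM in KO CMP 1 and 2 against 10101 to 19856 in WT CMP, and to 18522 in KO GMP 1 against 31087 to 33134 in WT GMP. The sum of 5 megakaryocyte markers was 443 to 653 CPM in KO CMP 1 and 2 against 313 to 357 in WT CMP, and 288 in KO GMP 1 against 88.3 to 97.7 in WT GMP. In KO CMP 3 and 4 this sum was 392 to 403, and in KO GMP 3 and 4 it was 74.9 to 78.7. For 6 stem and multipotent cell markers it was 474 to 483 against 378 to 594 CPM in CMP and 165 against 62.96 to 71.1 in GMP. For 5 mast cell and basophil markers it was 620 to 649 in KO GMP 3 and 4, against 1128 in KO GMP 1 and 1109 to 1217 in WT GMP. For 6 erythroid markers it was 54.1 to 61.0 in KO CMP 3 and 4 against 30.1 to 43.7 in WT CMP. The sort and progenitor sum (10231 to 10384) and the stem cell sum (486 to 510) of KO CMP 3 and 4 lay within the WT CMP ranges. The part of these sums in the results was not tested either. Library totals were 61278415 to 120299543 units, the deposited counts.

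The promoters show which of these genes carry the sequence that p53 binds close to the start site, and the 4 full elements found are printed for that reason. RefSeq promoters on GRCm38.p6 (250 bases before to 50 after a start) were found for 24 of the 31 genes, in 33 promoters. The 7 without one, and so not searched, were Ddb2, Perp, Pmaip1, Rrm2b, Tnfrsf10b, Trp53inp1 and Zmat3. The 10-base p53 response element was matched on both strands, and the full element is 2 such elements with a spacer of 0 or 1 base and up to 2 mismatches outside the invariant C and G of each. At least 1 perfect 10-base element lay in promoters of 11 of the 24 genes (45.8%), against 9.55% of all 27025 genes in the table. A full element lay in promoters of 4 of the 24 genes (16.7%), against 0.807% of all genes. The genes were listed as p53 regulators and targets, so these shares are no independent support for the list. Capitals mark the full element, and 30 bases of context stand on each side.
Cdkn1a, chr17:29090898-29090977, plus strand: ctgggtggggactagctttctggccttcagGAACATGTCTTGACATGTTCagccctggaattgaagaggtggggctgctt
Ccng1, chr11:40755432-40755511, minus strand: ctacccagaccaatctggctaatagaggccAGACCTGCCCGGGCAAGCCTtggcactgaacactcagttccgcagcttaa
Bax, chr7:45467049-45467129, minus strand: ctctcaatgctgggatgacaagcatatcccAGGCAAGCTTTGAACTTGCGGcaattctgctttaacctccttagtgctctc
Rps27l, chr9:66946266-66946345, plus strand: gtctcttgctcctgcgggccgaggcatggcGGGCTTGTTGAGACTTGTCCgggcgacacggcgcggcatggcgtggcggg
The Cdkn1a element, 51 to 32 bases upstream of the start, held 1 mismatch, and so did the Ccng1 element, 195 to 176 bases upstream. The Bax element, 201 to 181 bases upstream, had a spacer of 1 base and 2 mismatches. The Rps27l element, with 1 mismatch, lies in an intron of the gene, 117 to 98 bases upstream of its second annotated start. Of these 4 genes, edgeR called Cdkn1a and Bax higher for KO against WT in CMP numbers 1 and 2, and not Ccng1 or Rps27l. It called 10 of all 31 members higher there, and 8.23% of all genes. In GMP numbers 1 and 2, which hold 1 KO library, it called Cdkn1a and Ccng1 higher, and not Bax or Rps27l. Whether an element goes with a call was not tested. A match is a description of the letters, and distal or intronic elements outside these windows were not searched.

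With all libraries of a cell type together, no member passed an adjusted p of 0.05 for KO against WT. In CMP the edgeR quasi-likelihood test called 0 of 31 members, as it called 0% of all genes in either direction. At an unadjusted p under 0.05 in CMP, 7 members were higher (Cdkn1a, Bax, Zmat3, Aen, Perp, Plk2 and Gdf15; 4.68% of all genes) and 2 lower (Apaf1 and Dram1; 6.92% of all genes). DESeq2 called 2 members higher there, Cdkn1a and Zmat3, and 1 lower, Dram1. Of all 15181 tested genes, DESeq2 called 133 higher and 227 lower in CMP. In GMP edgeR and DESeq2 each called 0 members, against 0% of all genes for edgeR, and 5 members were higher at an unadjusted p under 0.05 (Cdkn1a, Phlda3, Eda2r, Zmat3 and Tnfrsf10b; 4.49% of all genes) and 0 lower (2% of all genes). The KO effect did not pass a difference between CMP and GMP for any member, with 0 called by either tool (0% of all genes by edgeR) and 0 at an unadjusted p under 0.05 in either direction (0.85% and 2.12% of all genes). Read library by library, 5 members had all KO CMP values above all WT CMP values, namely Cdkn1a, Phlda3, Zmat3, Aen and Plk2, where 3.25% of all genes met that rule. Dram1 was the 1 member lower in every KO CMP library, where 3.6% of all genes did. In GMP 7 members met the rule upward, namely Mdm2, Cdkn1a, Ccng1, Phlda3, Eda2r, Zmat3 and Tnfrsf10b (3.64% of all genes), and 0 met it downward (3.7%). Taken singly, KO CMP libraries 1 to 4 had 18, 16, 12 and 13 members above every WT CMP library, where 25.5%, 27.2%, 18% and 24.8% of all genes were. KO GMP libraries 1, 3 and 4 had 18, 10 and 12 members above every WT GMP library, where 33.5%, 16.9% and 19.7% of all genes were. Below every WT library of their cell type were 3, 2, 5 and 9 members in KO CMP 1 to 4 (23.8%, 23.7%, 16.9% and 26.1% of all genes) and 5, 3 and 4 in KO GMP 1, 3 and 4 (30.4%, 14.3% and 18%). Paired by number, KO was above WT in all 4 CMP pairs for 11 members (13.4% of all genes) and below for 2 (14.6%), and in all 3 GMP pairs it was above for 12 (17.4%) and below for 4 (14.4%). Without KO CMP 1 and 2 and KO GMP 1, an alternative chosen after the data were seen, edgeR again called 0 members in CMP and 0 in GMP. That alternative kept all WT libraries, so KO numbers 3 and 4 stood against WT numbers 1 to 4. It therefore mixes the genotype with the number set.

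Fold changes are given as log2 fold changes ± SE from the edgeR quasi-likelihood fit, with Benjamini-Hochberg adjusted p-values over all 15181 genes. In CMP numbers 1 and 2, 10 of 31 members rose (8.23% of all genes did) and 2 fell (10.2%), with a median log2 fold change of 0.31 over members and 0.01 over all tested genes. The corresponding GMP comparison had 13 members that rose (11% of all genes) and 1 that fell (9%), with medians of 0.35 over members and 0.00 over all genes. Of these calls, 8 higher genes were shared, Cdkn1a, Trp53inp1, Phlda3, Eda2r, Zmat3, Perp, Tnfrsf10b and Plk2, which is 80% of the CMP list and 61.5% of the GMP list. Over all tested genes, 63.2% of the genes higher in CMP and 47.3% of those higher in GMP were shared. Numbers 3 and 4 gave no call in edgeR: 0 of 31 members in CMP (0.00659% of all genes higher, 0% lower) and 0 of 31 in GMP (0.00659% in each direction). At an unadjusted p under 0.05 there, 5 members were higher in CMP (Cdkn1a, Zmat3, Plk2, Plk3 and Rps27l; 6.18% of all genes) and 3 lower (Trp53inp1, Rrm2b and Dram1; 5.21%). In GMP 3 were higher (Cdkn1a, Phlda3 and Plk2; 2.07%) and 0 lower (3.12%). DESeq2 called Cdkn1a alone in CMP numbers 3 and 4 and 0 members in GMP numbers 3 and 4. Over all genes, the alternatives that kept every library, DESeq2 among them, gave 1 to 73 higher in CMP numbers 3 and 4. The difference between the sets was itself tested, on a split by number that was chosen with earlier results of these data known. The adjusted p-values are therefore no independent support for the split. In CMP 6 members passed upward and 1 downward (3.05% and 4.59% of all genes). In GMP 8 passed upward and 1 downward (6.27% and 4.36%). The pattern over all 31 genes is drawn in the plot of KO effects by number set.

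**Figure D1:**
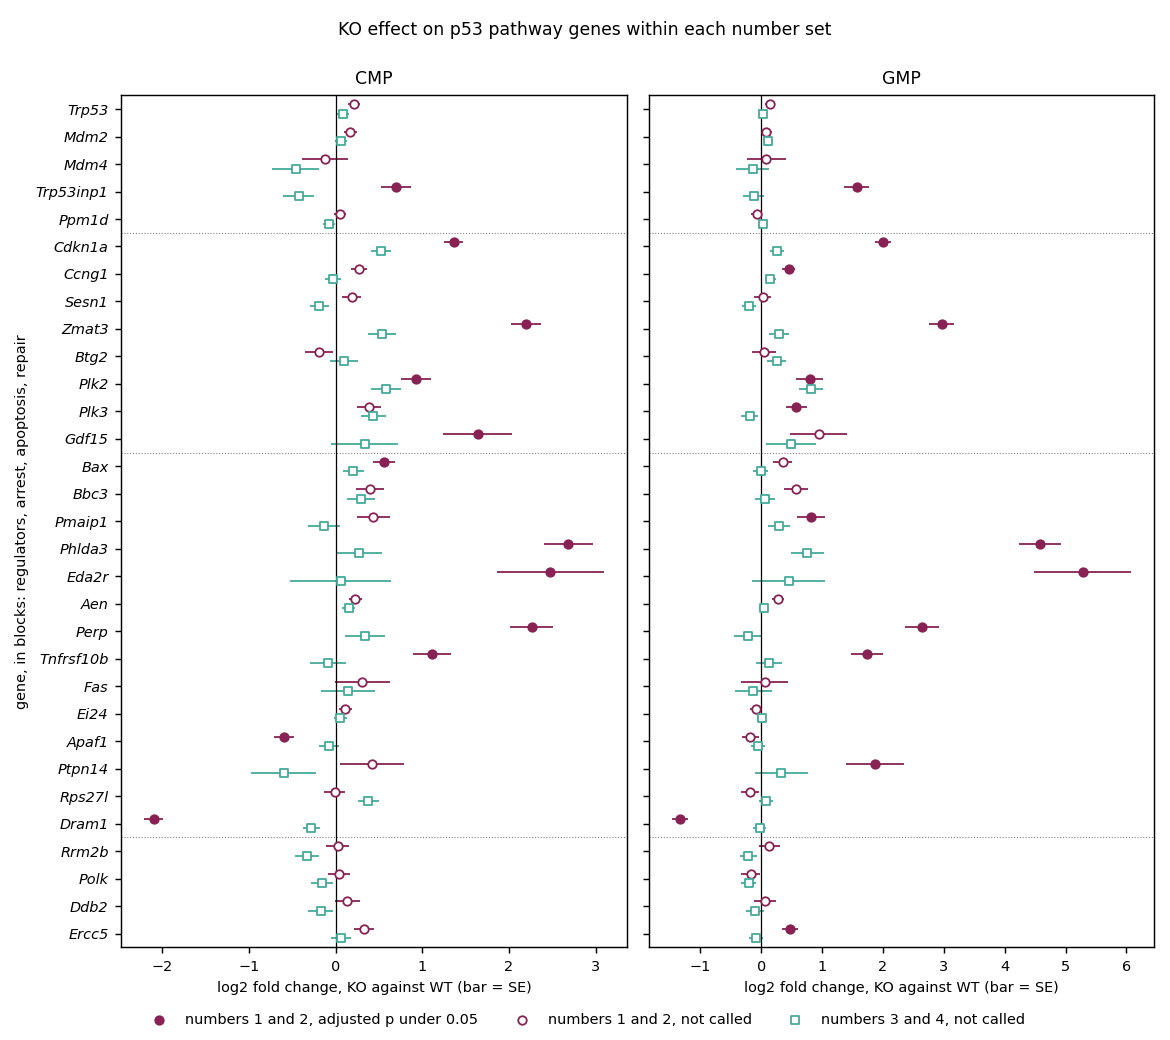
Log2 fold change, KO against WT, of each of the 31 genes (points, with bars for the SE) in CMP (left) and GMP (right), fitted within library numbers 1 and 2 (circles, filled where the adjusted p is under 0.05) and within numbers 3 and 4 (squares). On horizontal scales that differ between the panels, filled circles number 12 in CMP and 14 in GMP, no square is filled, and Dram1 is the leftmost point of each panel.

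Of the 5 genes made up of Trp53 and its regulators, edgeR called Trp53inp1 in a KO comparison and not Trp53, Mdm2, Mdm4 or Ppm1d, while DESeq2 also called Trp53 and Mdm2 higher in CMP numbers 1 and 2. Trp53 itself (chromosome 11, 69580359 to 69591873, plus strand, GRCm38) lies 255 kb from Trappc1 on the same chromosome. It held 198, 202, 231 and 242 CPM in WT CMP and 228, 236, 252 and 249 CPM in KO CMP, in the order of the library numbers. In GMP the values were 202, 224, 205 and 213 CPM in WT GMP and 236, 211 and 214 CPM in KO GMP, the KO libraries being numbers 1, 3 and 4, and this order is kept below. The KO and WT ranges of Trp53 overlapped in both cell types, and KO was above WT in each of the 4 CMP and 3 GMP pairs of the same number. In CMP numbers 1 and 2 the KO effect was 0.21 ± 0.07, adjusted p = 0.0508, and the adjusted p was 0.0293 with the library number as a block and 0.00222 by DESeq2. It was 0.08 ± 0.07, adjusted p = 0.663 in CMP numbers 3 and 4, 0.15 ± 0.08, adjusted p = 0.254 in GMP numbers 1 and 2 and 0.02 ± 0.07, adjusted p = 1 in GMP numbers 3 and 4. Mdm2, the ligase that is both a p53 target and its main inhibitor, held 80.1, 79.7, 73.3 and 77.4 CPM in WT CMP and 86.04, 93.8, 80.3 and 77.1 CPM in KO CMP. The GMP levels of Mdm2 were 74.3, 78.4, 72.2 and 77.9 CPM in WT GMP and 80.8, 79.8 and 82.7 CPM in KO GMP. All 3 KO GMP libraries lay above the 4 WT GMP libraries, by little, and the CMP ranges overlapped. The effect on Mdm2 was 0.17 ± 0.07, adjusted p = 0.140 in CMP numbers 1 and 2 (DESeq2 adjusted p = 0.0492) and 0.08 ± 0.09, adjusted p = 0.582 in GMP numbers 1 and 2. Mdm4, which holds p53 inactive, and Ppm1d (Wip1), the phosphatase that ends the response, had wide and narrow spreads. Mdm4 ran from 39.6 to 121 CPM over the 15 libraries with overlapping groups, and measured -0.12 ± 0.27, adjusted p = 0.817 in CMP numbers 1 and 2. Ppm1d ran from 31.6 to 36.8 CPM and measured 0.05 ± 0.07, adjusted p = 0.705.

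Trp53inp1, a stress protein that promotes p53 phosphorylation and autophagy, was the regulator that rose. It measured 27.4, 26.98, 33.02 and 30.1 CPM in WT CMP and 33.1, 54.9, 22.6 and 24.4 CPM in KO CMP. In GMP it measured 11.2, 9.49, 18.6 and 19.3 CPM in WT GMP and 30.7, 17.4 and 17.4 CPM in KO GMP. KO CMP 2 and KO GMP 1 were the highest of their cell types, and KO CMP 3 and 4 were below all 4 WT CMP libraries. It rose by 0.70 ± 0.18 in CMP numbers 1 and 2 (adjusted p = 0.0156) and by 1.57 ± 0.21 in GMP numbers 1 and 2 (adjusted p = 2.59e-04). In numbers 3 and 4 the values were -0.43 ± 0.17, adjusted p = 0.393 in CMP and -0.12 ± 0.18, adjusted p = 1 in GMP. The sets differed by 1.12 ± 0.25, adjusted p = 0.0149 in CMP and by 1.69 ± 0.28, adjusted p = 0.00208 in GMP. The CMP call was lost without KO CMP 2 (adjusted p = 0.115), WT CMP 1 (0.0758) or WT CMP 2 (0.0853). The CMP difference between sets was lost without KO CMP 3 (0.0636), WT CMP 2 (0.0590) or WT CMP 3 (0.0531).

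**Figure D2:**
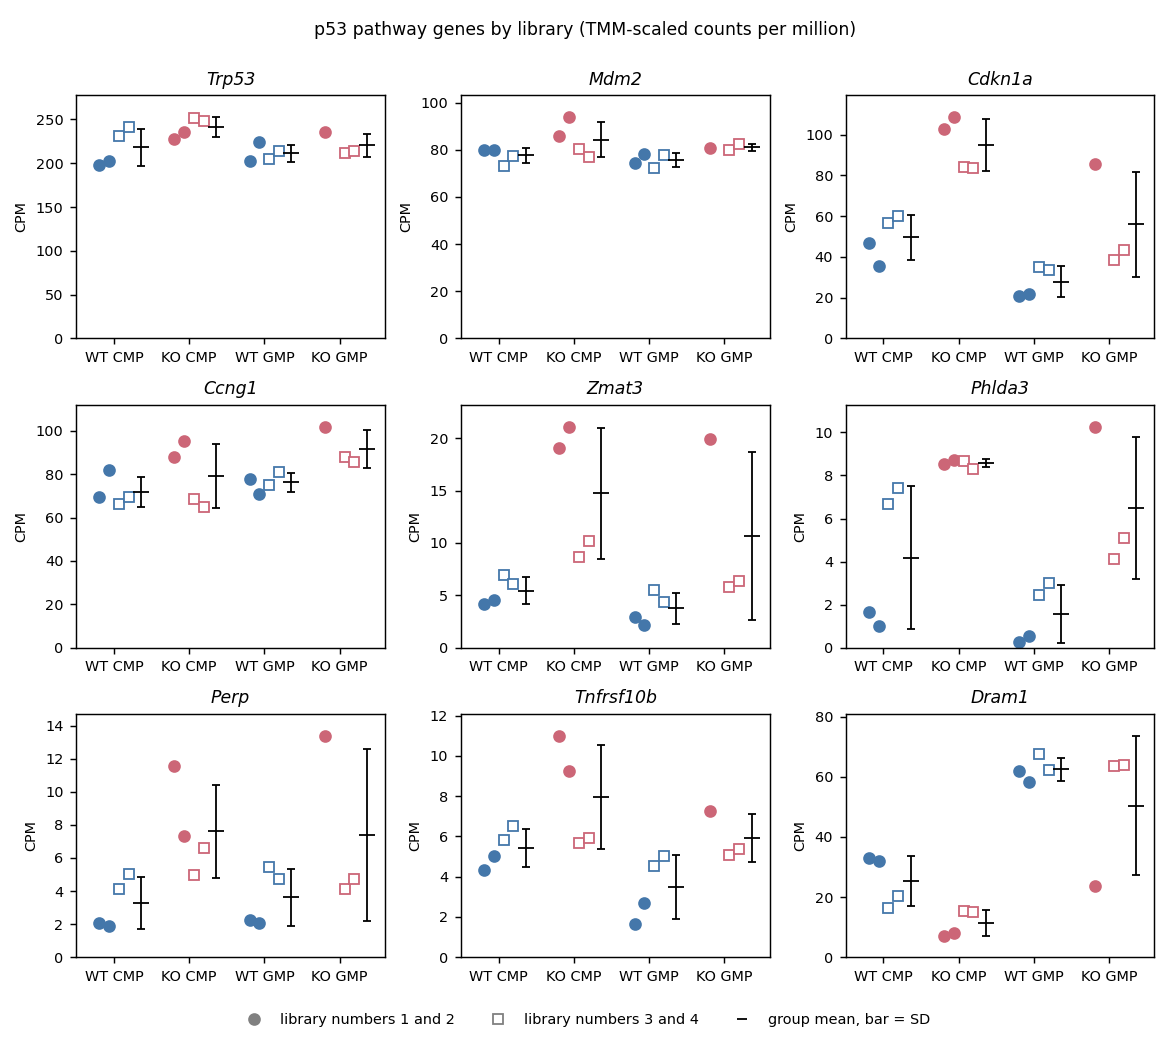
TMM-scaled CPM of 9 genes in every library, by group (horizontal axis), with filled circles for library numbers 1 and 2 and open squares for numbers 3 and 4; the short line and bar beside each group are its mean and SD (n = 4, or 3 in KO GMP). Trp53 and Mdm2 lie close together in all groups, while Cdkn1a, Zmat3 and Perp are highest in the filled circles of the KO groups of each cell type and Dram1 is lowest there.

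Of the 8 genes with a role in cell cycle arrest and growth control, Cdkn1a, Zmat3, Plk2 and Gdf15 rose in CMP numbers 1 and 2, and Cdkn1a, Ccng1, Zmat3, Plk2 and Plk3 in GMP numbers 1 and 2. Cdkn1a, whose product p21 inhibits the cyclin-dependent kinases, held 46.6, 35.4, 56.7 and 59.97 CPM in WT CMP and 103, 108, 84.1 and 83.6 CPM in KO CMP. The GMP libraries held 20.7, 21.95, 35.1 and 33.5 CPM in WT GMP and 85.7, 38.6 and 43.4 CPM in KO GMP. Every KO library was above every WT library of its cell type, in both number sets. Cdkn1a rose by 1.36 ± 0.11 in CMP numbers 1 and 2 (adjusted p = 4.12e-06) and by 2.01 ± 0.13 in GMP numbers 1 and 2 (adjusted p = 1.56e-06). In numbers 3 and 4 its effect was 0.52 ± 0.11, adjusted p = 0.234 in CMP, where DESeq2 gave an adjusted p of 0.00650, and 0.25 ± 0.11, adjusted p = 0.914 in GMP. The difference between the sets was 0.84 ± 0.16, adjusted p = 0.00563 in CMP and 1.75 ± 0.17, adjusted p = 8.90e-05 in GMP. Over all libraries it was 0.93 ± 0.25, adjusted p = 0.206 in CMP and 1.01 ± 0.27, adjusted p = 0.523 in GMP. Without the 3 libraries that stand apart, these became 0.74 (adjusted p = 0.230) and 0.56 (adjusted p = 0.935), an alternative chosen after the data were seen. WT numbers 1 and 2 were kept in it, so it mixes the genotype with the number set.

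Zmat3, an RNA-binding protein that acts in p53-dependent growth restraint, showed the same order with a larger fold. Its levels were 4.21, 4.51, 6.92 and 6.08 CPM in WT CMP and 19.04, 21.1, 8.66 and 10.2 CPM in KO CMP. The GMP levels were 2.91, 2.21, 5.47 and 4.40 CPM in WT GMP and 19.9, 5.79 and 6.33 CPM in KO GMP. KO CMP 1 and 2 and KO GMP 1 stood at 19.0 to 21.1 CPM, and the other KO libraries lay above the highest WT library of their cell type. Zmat3 rose by 2.20 ± 0.17 in CMP numbers 1 and 2 (adjusted p = 2.81e-06) and by 2.97 ± 0.20 in GMP numbers 1 and 2 (adjusted p = 1.85e-06). Numbers 3 and 4 gave 0.54 ± 0.17, adjusted p = 0.331 in CMP and 0.29 ± 0.17, adjusted p = 1 in GMP. The sets differed by 1.66 ± 0.24, adjusted p = 8.44e-04 in CMP and 2.67 ± 0.26, adjusted p = 8.63e-05 in GMP. Over all CMP libraries it was 1.44 ± 0.42, adjusted p = 0.229 (DESeq2 adjusted p = 0.0263), or 0.78 (adjusted p = 0.242) without the 3 libraries that stand apart. The last value again sets KO numbers 3 and 4 against WT numbers 1 to 4.

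Plk2, a polo-like kinase of the stress response, held 15.03, 13.3, 11.5 and 11.2 CPM in WT CMP and 21.5, 32.4, 18.3 and 15.6 CPM in KO CMP. In GMP its level was lower, at 4.14, 4.65, 1.98 and 2.42 CPM in WT GMP and 7.65, 3.84 and 3.89 CPM in KO GMP. Each KO CMP library was above each WT CMP library, and within either number set each KO GMP library was above its WT libraries. Plk2 rose by 0.93 ± 0.18 in CMP numbers 1 and 2 (adjusted p = 0.00280) and by 0.80 ± 0.22 in GMP numbers 1 and 2 (adjusted p = 0.0238, or 0.0930 without WT GMP 1). In numbers 3 and 4 the values were of like size, 0.58 ± 0.18, adjusted p = 0.329 in CMP and 0.82 ± 0.19, adjusted p = 0.315 in GMP, and the difference between sets was 0.34 ± 0.25, adjusted p = 0.496 and -0.02 ± 0.29, adjusted p = 1. Ccng1 (cyclin G1), an early p53 target, measured 69.7, 81.9, 66.1 and 69.7 CPM in WT CMP and 87.95, 95.2, 68.4 and 65.01 CPM in KO CMP. In GMP it measured 77.9, 70.8, 75.2 and 80.9 CPM in WT GMP and 102, 87.8 and 85.5 CPM in KO GMP. The 3 KO GMP libraries were above the 4 WT GMP libraries, and in CMP KO 1 and 2 alone were above all WT libraries. Ccng1 rose by 0.45 ± 0.11 in GMP numbers 1 and 2 (adjusted p = 0.0114, or 0.0673 without WT GMP 2), and in CMP numbers 1 and 2 it was 0.27 ± 0.09, adjusted p = 0.0551.

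Plk3, a related kinase, held 21.4, 16.9, 16.3 and 12.7 CPM in WT CMP and 26.8, 23.2, 18.9 and 20.3 CPM in KO CMP. GMP libraries measured 19.7, 22.2, 15.9 and 17.2 CPM in WT GMP and 31.2, 14.8 and 14.1 CPM in KO GMP. KO GMP 1 was the highest of the GMP libraries and KO GMP 3 and 4 were the lowest. It rose by 0.57 ± 0.17 in GMP numbers 1 and 2 (adjusted p = 0.0331), a call lost with the library number as a block (adjusted p = 0.0742), without WT GMP 1 (0.131) or without WT GMP 2 (0.0514). The Plk3 difference between sets in GMP was 0.77 ± 0.22, adjusted p = 0.0470, and 0.0780 with the block. Leaving out any of KO CMP 3, KO CMP 4, KO GMP 3, KO GMP 4 or WT GMP 1 to 4 took it to 0.0572 to 0.127. Exons of Plk3 share 84 bases with Tctex1d4 on the other strand, and whether counting used the strand is not given. Gdf15, a secreted stress cytokine, held 2.35, 0.916, 1.97 and 3.07 CPM in WT CMP and 5.95, 4.22, 3.47 and 2.89 CPM in KO CMP. In GMP it held 1.66, 1.54, 0.747 and 0.668 CPM in WT GMP and 3.08, 1.05 and 0.943 CPM in KO GMP. KO CMP 1, 2 and 3 were above all WT CMP libraries, and KO GMP 1 was the highest GMP library. Gdf15 rose by 1.64 ± 0.40 in CMP numbers 1 and 2 (adjusted p = 0.0128), and the call was lost without KO CMP 1 (0.0700) or WT CMP 2 (0.0846). Its value was 0.94 ± 0.47, adjusted p = 0.185 in GMP numbers 1 and 2. Sesn1, a sestrin that restrains TORC1, and Btg2, an antiproliferative factor, were called in no KO comparison by edgeR or DESeq2. Sesn1 was 0.18 ± 0.11, adjusted p = 0.297 in CMP numbers 1 and 2, and Btg2 was -0.19 ± 0.16, adjusted p = 0.486.

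Of the 14 genes with a role in apoptosis and survival, Bax, Phlda3, Eda2r, Perp and Tnfrsf10b rose and Apaf1 and Dram1 fell in CMP numbers 1 and 2. In GMP numbers 1 and 2, Pmaip1, Phlda3, Eda2r, Perp, Tnfrsf10b and Ptpn14 rose and Dram1 fell. Phlda3, a pleckstrin-homology protein that represses Akt, held 1.65, 1.02, 6.67 and 7.41 CPM in WT CMP and 8.52, 8.71, 8.69 and 8.32 CPM in KO CMP. The GMP libraries held 0.277, 0.566, 2.46 and 2.99 CPM in WT GMP and 10.3, 4.12 and 5.11 CPM in KO GMP. All 4 KO CMP libraries lay within 8.32 to 8.71 CPM, while the WT CMP libraries split into 1.02 to 1.65 CPM in numbers 1 and 2 and 6.67 to 7.41 CPM in numbers 3 and 4. In GMP, KO 1 was above KO 3 and 4, and WT 1 and 2 were below WT 3 and 4. Phlda3 rose by 2.69 ± 0.28 in CMP numbers 1 and 2 (adjusted p = 3.17e-05) and by 4.58 ± 0.35 in GMP numbers 1 and 2 (adjusted p = 3.89e-06). Numbers 3 and 4 gave 0.27 ± 0.26, adjusted p = 0.712 in CMP and 0.76 ± 0.27, adjusted p = 0.757 in GMP. The sets differed by 2.41 ± 0.38, adjusted p = 0.00175 in CMP and 3.82 ± 0.44, adjusted p = 2.14e-04 in GMP. Low counts stand behind the WT GMP values, with 16 and 40 units in libraries 1 and 2. Without the 3 libraries that stand apart, the CMP effect over the rest was 1.01, adjusted p = 0.537, and the GMP effect 1.54, adjusted p = 0.935. These 2 effects set KO numbers 3 and 4 against WT numbers 1 to 4. The lower WT level in numbers 1 and 2 enters them, unlike the 0.27 and 0.76 within numbers 3 and 4.

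Eda2r and Tnfrsf10b encode death receptors of the TNF receptor family, and Perp a membrane protein of desmosomes that takes part in p53-dependent death. Eda2r, on the X chromosome, held 0.575, 1.01, 1.44 and 1.51 CPM in WT CMP and 4.86, 4.01, 1.17 and 1.90 CPM in KO CMP. The GMP levels were 0, 0.198, 0.757 and 0.733 CPM in WT GMP and 4.13, 1.11 and 0.929 CPM in KO GMP. KO CMP 1 and 2 and KO GMP 1 were at 4.01 to 4.86 CPM and all other libraries at or below 1.90 CPM. It rose by 2.48 ± 0.62 in CMP numbers 1 and 2 (adjusted p = 0.0143, or 0.122 without WT CMP 1). In GMP numbers 1 and 2 it was called higher (adjusted p = 6.26e-04), but with 0 and 14 units in the WT libraries the fitted fold depends on the prior count and is not a measure of size. Perp held 2.06, 1.87, 4.10 and 5.05 CPM in WT CMP and 11.5, 7.32, 4.96 and 6.59 CPM in KO CMP. The GMP values for Perp were 2.25, 2.04, 5.46 and 4.73 CPM in WT GMP and 13.4, 4.10 and 4.70 CPM in KO GMP. KO CMP 1 and 2 and KO GMP 1 were the 3 highest of all libraries, and KO GMP 3 and 4 lay within the WT GMP range. Perp rose by 2.26 ± 0.25 in CMP numbers 1 and 2 (adjusted p = 3.93e-05) and by 2.64 ± 0.28 in GMP numbers 1 and 2 (adjusted p = 4.30e-05). It measured 0.34 ± 0.23, adjusted p = 0.594 in CMP numbers 3 and 4 and -0.21 ± 0.23, adjusted p = 1 in GMP numbers 3 and 4, and the sets differed by 1.93 ± 0.33, adjusted p = 0.00346 in CMP and 2.85 ± 0.36, adjusted p = 4.57e-04 in GMP. Tnfrsf10b (the TRAIL receptor) held 4.33, 5.02, 5.82 and 6.51 CPM in WT CMP and 10.98, 9.27, 5.67 and 5.93 CPM in KO CMP. In GMP the values were 1.63, 2.72, 4.53 and 5.03 CPM in WT GMP and 7.27, 5.10 and 5.40 CPM in KO GMP. KO CMP 1 and 2 were above the WT CMP range, KO CMP 3 and 4 were inside it, and all 3 KO GMP libraries were above the WT GMP range. Tnfrsf10b rose by 1.11 ± 0.21 in CMP numbers 1 and 2 (adjusted p = 0.00304) and by 1.74 ± 0.26 in GMP numbers 1 and 2 (adjusted p = 5.04e-04). The sets differed by 1.60 ± 0.34, adjusted p = 0.00958 in GMP. In CMP the difference was 1.20 ± 0.30, adjusted p = 0.0295, and it was lost on leaving out any of KO CMP 1, 3 or 4, KO GMP 3 or 4, or WT CMP 1 to 4 (adjusted p 0.0508 to 0.102).

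The BCL2-family members had smaller folds. Bax, which permeabilises mitochondria, held 47.98, 44.8, 60.2 and 79.8 CPM in WT CMP and 65.9, 71.01, 73.5 and 87.8 CPM in KO CMP. GMP libraries measured 57.5, 55.97, 74.6 and 75.5 CPM in WT GMP and 72.4, 70.04 and 78.9 CPM in KO GMP. The CMP ranges overlapped through WT CMP 4. Bax rose by 0.56 ± 0.12 in CMP numbers 1 and 2 (adjusted p = 0.00738), and without WT CMP 2 the adjusted p was 0.0640. It was 0.35 ± 0.15, adjusted p = 0.126 in GMP numbers 1 and 2. Pmaip1 (Noxa), a BH3-only protein, held 26.9, 20.8, 63.5 and 63.3 CPM in WT CMP and 24.6, 40.04, 55.2 and 60.1 CPM in KO CMP. In GMP it held 24.3, 29.1, 106 and 123 CPM in WT GMP and 47.1, 138 and 142 CPM in KO GMP. Numbers 3 and 4 were above numbers 1 and 2 in every group. Pmaip1 rose by 0.82 ± 0.22 in GMP numbers 1 and 2 (adjusted p = 0.0227, or 0.105 without WT GMP 1), and was 0.44 ± 0.19, adjusted p = 0.136 in CMP numbers 1 and 2. Bbc3 (Puma), the other BH3-only member, was not called by edgeR in any KO comparison. It was 0.40 ± 0.16, adjusted p = 0.118 in CMP numbers 1 and 2 (0.0336 with the block) and 0.57 ± 0.20, adjusted p = 0.0609 in GMP numbers 1 and 2 (0.0419 by DESeq2). It ran from 13.1 to 20.5 CPM in WT CMP and 18.2 to 24.2 CPM in KO CMP. Aen, a nuclease of apoptosis, was above every WT CMP library in all 4 KO CMP libraries (50.5 to 55.5 against 45.7 to 49.1 CPM). Its difference was small at 0.23 ± 0.07, adjusted p = 0.0522 in numbers 1 and 2, or 0.0415 with the block and 0.0113 by DESeq2. Aen measured 0.28 ± 0.09, adjusted p = 0.0509 in GMP numbers 1 and 2, or 0.0244 by DESeq2. Fas, the death receptor, Ei24, an endoplasmic reticulum protein, and Rps27l, a ribosomal protein paralog, were called in no KO comparison by edgeR or DESeq2.

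Dram1 and Apaf1 went the other way. Dram1, a lysosomal membrane protein of p53-induced autophagy, held 32.98, 32.2, 16.4 and 20.2 CPM in WT CMP and 7.05, 8.14, 15.3 and 14.9 CPM in KO CMP. The GMP libraries held 61.8, 58.4, 67.5 and 62.4 CPM in WT GMP and 23.8, 63.7 and 63.8 CPM in KO GMP. KO CMP libraries were below all WT CMP libraries, and KO GMP 1 was far below the other 6 GMP libraries, which lay within 58.4 to 67.5 CPM. Dram1 fell in CMP numbers 1 and 2 (-2.10 ± 0.11, adjusted p = 9.20e-08) and in GMP numbers 1 and 2 (-1.34 ± 0.13, adjusted p = 2.95e-05). In numbers 3 and 4 it was -0.28 ± 0.10, adjusted p = 0.366 in CMP and -0.03 ± 0.10, adjusted p = 1 in GMP. The sets differed by -1.82 ± 0.15, adjusted p = 1.43e-05 in CMP and by -1.31 ± 0.16, adjusted p = 4.15e-04 in GMP. The monocyte and late neutrophil markers were lowest in the same 3 KO libraries, with 5 late neutrophil genes summing to 2.53 to 4.63 CPM in KO CMP 1 and 2 against 22.7 to 250.5 in WT CMP, and their part in the Dram1 result was not tested. Apaf1, the scaffold of the apoptosome, held 118, 114, 80.2 and 70.6 CPM in WT CMP and 83.6, 69.96, 79.8 and 63.2 CPM in KO CMP. The GMP levels were 140.4, 146, 145 and 142 CPM in WT GMP and 126, 141 and 135 CPM in KO GMP. KO CMP 1 and 2 were below WT CMP 1 and 2 but close to WT CMP 3 and 4. Apaf1 fell in CMP numbers 1 and 2 (-0.60 ± 0.11, adjusted p = 0.00267) and measured -0.18 ± 0.14, adjusted p = 0.407 in GMP numbers 1 and 2. The CMP sets differed by -0.52 ± 0.16, adjusted p = 0.0722 for Apaf1, or 0.0296 with the library number as a block. Ptpn14, a tyrosine phosphatase that restrains YAP, held 5.24, 4.09, 4.00 and 2.85 CPM in WT CMP and 4.73, 7.76, 2.43 and 2.10 CPM in KO CMP. In GMP the values were 0.415, 0.608, 0.360 and 0.249 CPM in WT GMP and 1.88, 0.526 and 0.232 CPM in KO GMP. KO GMP 1 was the 1 GMP library above 1 CPM. Ptpn14 rose by 1.87 ± 0.47 in GMP numbers 1 and 2 (adjusted p = 0.0149, or 0.0858 without WT GMP 1), on 24 and 43 units in the WT libraries, and was 0.42 ± 0.37, adjusted p = 0.499 in CMP numbers 1 and 2.

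Of the 4 genes for DNA repair and nucleotide supply, edgeR called Ercc5 in GMP numbers 1 and 2 and the others in no KO comparison. Ercc5 (XPG), the nuclease of nucleotide excision repair, held 16.1, 15.1, 18.3 and 20.03 CPM in WT CMP and 21.1, 18.02, 18.8 and 21.3 CPM in KO CMP. GMP libraries measured 13.98, 12.5, 14.98 and 13.9 CPM in WT GMP and 18.4, 13.4 and 13.8 CPM in KO GMP. KO GMP 1 was above all other GMP libraries and the CMP ranges overlapped. It rose by 0.47 ± 0.14 in GMP numbers 1 and 2 (adjusted p = 0.0298, or 0.124 without WT GMP 2), and in CMP numbers 1 and 2 it was 0.33 ± 0.11, adjusted p = 0.0630, or 0.0378 with the block. Rrm2b, a ribonucleotide reductase subunit, Polk, a translesion polymerase, and Ddb2, a sensor of ultraviolet damage, had overlapping KO and WT ranges in CMP. Their effects in CMP numbers 1 and 2 were 0.02 ± 0.14, 0.04 ± 0.13 and 0.14 ± 0.15. Exons of Ddb2 share 652 bases with Acp2 on the other strand, so its counts may include reads of Acp2.

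**Figure D3:**
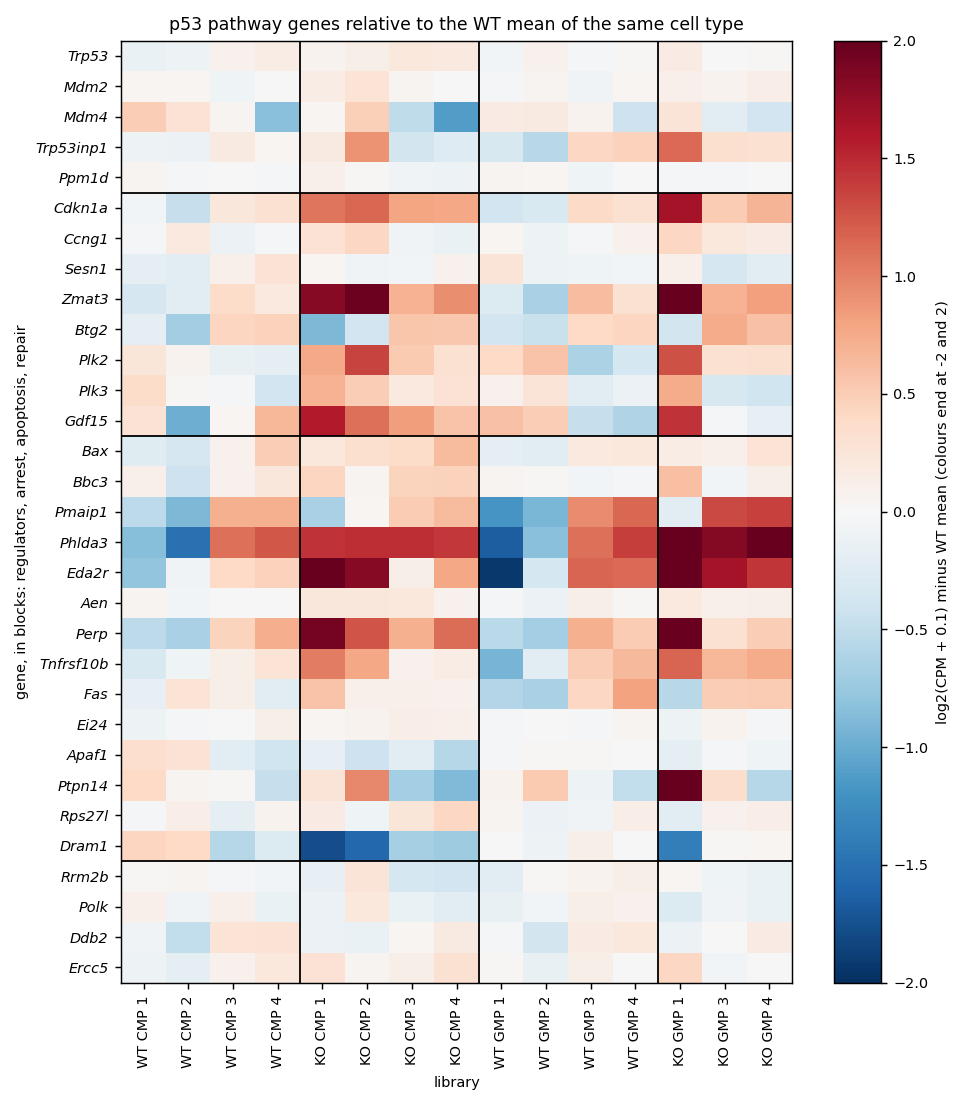
Each cell is log2(CPM + 0.1) of a gene (rows, in blocks by role) in a library (columns), minus the mean of the 4 WT libraries of the same cell type; red is higher, blue lower, and colours end at -2 and 2. Cdkn1a, Zmat3, Phlda3, Eda2r and Perp are red in KO CMP 1 and 2 and KO GMP 1, and Dram1 is blue there. Cdkn1a, Zmat3 and Perp are a paler red in the other KO libraries. Phlda3 is about as red in KO CMP 3 and 4 (1.47 and 1.41) as in KO CMP 1 and 2 (1.45 and 1.48). In KO GMP 3 and 4, Phlda3 (1.83 and 2.13) and Eda2r (1.66 and 1.43) are red too. Phlda3 and Pmaip1 also split the WT libraries by number.

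The WT libraries alone also differed between the number sets. In WT CMP, 10 members were lower in numbers 1 and 2 than in numbers 3 and 4 (10.6% of all genes) and 2 were higher (12.3%), with a median of -0.22 over members and -0.01 over all genes. The lower members were Trp53, Cdkn1a, Bax, Pmaip1, Phlda3, Sesn1, Zmat3, Btg2, Perp and Ddb2, and the higher were Apaf1 and Dram1. Phlda3 (-2.39 ± 0.28, adjusted p = 1.34e-04), Pmaip1 (-1.41 ± 0.19, adjusted p = 3.38e-04) and Perp (-1.22 ± 0.24, adjusted p = 0.00415) differed most among them. In WT GMP, 10 members were again lower (5.45% of all genes) and 1 higher (3.16%), with medians of -0.12 and -0.01. These were Cdkn1a, Pmaip1, Trp53inp1, Phlda3, Eda2r, Zmat3, Btg2, Perp, Tnfrsf10b and Fas, and Plk2 was the higher one. Pmaip1 had the smallest adjusted p (-2.10 ± 0.19, adjusted p = 6.77e-05), followed by Phlda3 (-2.66 ± 0.31, adjusted p = 4.11e-04) and Cdkn1a (-0.69 ± 0.11, adjusted p = 0.00363). The counts rest on 2 libraries a side: in WT CMP the lower count was 4 without WT CMP 2 and 5 without WT CMP 4, and in WT GMP it was 5 without any of WT GMP 2, 3 or 4. Pmaip1, Phlda3, Btg2, Perp, Apaf1 and Dram1 in WT CMP, and Cdkn1a, Pmaip1 and Phlda3 in WT GMP, stayed past the threshold whichever library was left out. These comparisons share WT libraries with the KO effects of the same set, so a lower WT level in numbers 1 and 2 enters both. The means of Cdkn1a in CMP were 41.0 CPM (WT) and 106 CPM (KO) in numbers 1 and 2, and 58.3 and 83.8 CPM in numbers 3 and 4. So the KO level was also higher in numbers 1 and 2 for Cdkn1a, as it was for Zmat3 (20.1 against 9.42 CPM) and Perp (9.43 against 5.77 CPM), while Btg2 was lower there in KO (90.4 against 202 CPM) as in WT (103 against 189 CPM). This did not hold for every called member. Phlda3 was alike in KO CMP 1 and 2 (8.52 and 8.71 CPM) and KO CMP 3 and 4 (8.69 and 8.32 CPM). Bax was lower in KO CMP 1 and 2 (65.9 and 71.01 CPM) than in KO CMP 3 and 4 (73.5 and 87.8 CPM).

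GMP arise from CMP, and this step was compared within each genotype. In WT, 3 members were higher in GMP (11.3% of all genes) and 6 lower (14.2%), and in KO, 2 were higher (10.7%) and 4 lower (10.5%). Dram1 was higher in GMP in both genotypes (1.30 ± 0.33, adjusted p = 0.0109 in WT and 2.15 ± 0.35, adjusted p = 0.00104 in KO), as was Apaf1 (0.58 ± 0.14 and 0.86 ± 0.15). Rps27l was called higher in WT GMP (0.36 ± 0.11, adjusted p = 0.0310) and measured 0.18 ± 0.12, adjusted p = 0.338 in KO. Its WT call was lost without any of WT CMP 1, 3 or 4 or WT GMP 1, 3 or 4 (adjusted p 0.0559 to 0.102). Lower in GMP in both genotypes were Bbc3 (-0.91 ± 0.16 in WT and -0.998 ± 0.18 in KO), Sesn1 (-0.75 ± 0.13 and -0.88 ± 0.14), Plk2 (-1.95 ± 0.32 and -2.10 ± 0.35) and Ptpn14 (-3.31 ± 0.60 and -2.27 ± 0.63). Bbc3 measured 13.1 to 20.5 CPM in WT CMP and 9.14 to 9.85 CPM in WT GMP. Cdkn1a (-0.84 ± 0.25, adjusted p = 0.0270) and Trp53inp1 (-1.002 ± 0.30, adjusted p = 0.0243) were lower in WT GMP, and both calls were lost without WT CMP 3, WT GMP 1 or WT GMP 2, and that of Cdkn1a also without WT CMP 4 (adjusted p 0.0657 to 0.0777). In KO, Ptpn14 was lost without KO CMP 2, KO GMP 3 or KO GMP 4 (0.0538 to 0.103). The KO count of lower members was 8 with the library number as a block, where 14% of all genes were lower, 7 without the 3 libraries that stand apart (13%) and 9 without KO GMP 1 (15.2%). The block added Btg2, Gdf15, Ddb2 and Ercc5 to the lower members in KO and Pmaip1 to the higher ones (adjusted p 0.0129, 0.0365, 0.0191, 0.0231 and 0.0148), and in WT it added Btg2, Ddb2 and Ercc5 (0.00166, 0.0280 and 0.0435).

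**Figure D4:**
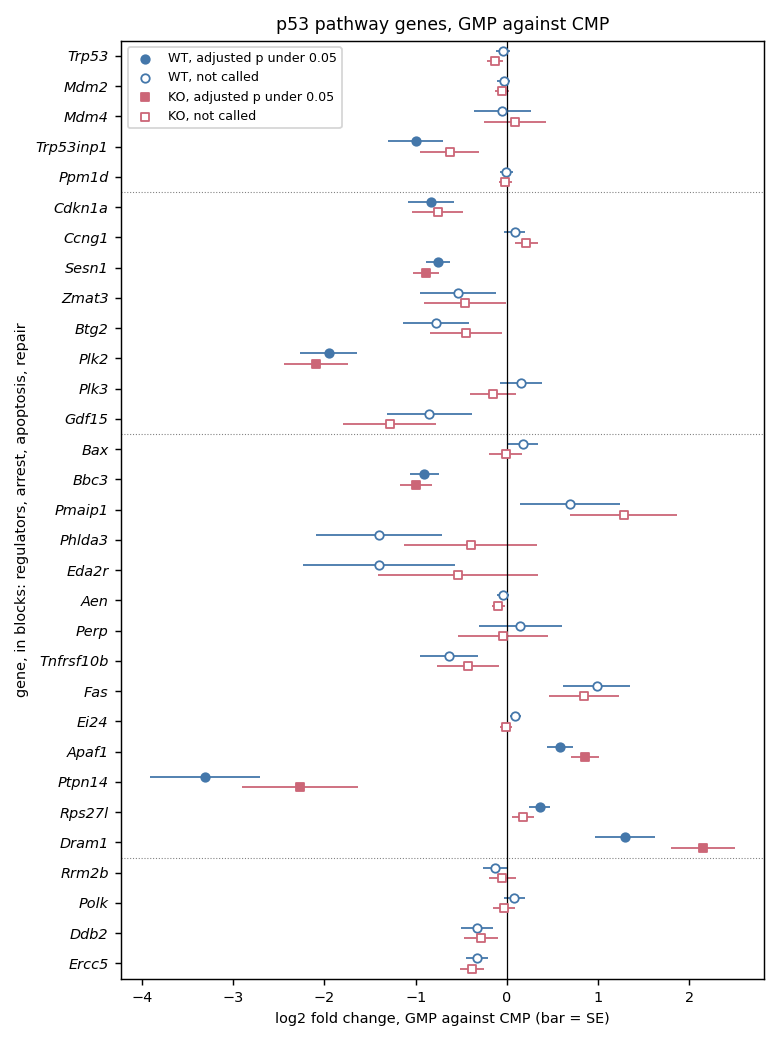
Log2 fold change, GMP against CMP, of each of the 31 genes in WT (circles) and in KO (squares), with bars for the SE and filled symbols where the adjusted p is under 0.05. Ptpn14 and Plk2 lie farthest to the left and Dram1 farthest to the right, in both genotypes.

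Further lists of the pathway were read in the same fits. Of 32 other p53 targets, 9 rose and 3 fell in CMP numbers 1 and 2 (median 0.31), and 10 rose and 4 fell in GMP numbers 1 and 2 (median 0.29), beside the shares of all genes given above. In numbers 3 and 4, 0 of the 32 passed in either cell type, with 3 higher and 1 lower at an unadjusted p under 0.05 in CMP, 3 higher and 0 lower in GMP, and 0 calls by DESeq2 in both. The lower count was 7 in CMP with the library number as a block, and 2 in GMP without WT GMP 1. By smallest p in CMP numbers 1 and 2, these were led by the spindle protein gene Psrc1 (1.32 ± 0.10, adjusted p = 2.21e-06), the adenylate kinase Ak1 (2.18 ± 0.22, adjusted p = 1.92e-05), the glycolysis regulator Tigar, listed as 9630033F20Rik (-0.77 ± 0.12, adjusted p = 8.02e-04), and the damage sensor Xpc (-0.46 ± 0.08, adjusted p = 0.00103). Psrc1 held 17.2, 16.1, 33.4 and 37.4 CPM in WT CMP and 44.2, 39.1, 36.6 and 39.6 CPM in KO CMP, so, like Phlda3, it was at a similar level in all KO CMP libraries and split the WT ones. In GMP numbers 1 and 2 the receptor kinase Epha2, Psrc1, Ak1 and the adaptor Traf4 led the list, with Epha2 at 0.138, 0.0566, 1.22 and 0.982 CPM in WT GMP and 4.01, 2.12 and 1.41 CPM in KO GMP. Of the 18 genes upstream of p53, 15 were tested, and 1 rose in CMP numbers 1 and 2, the deubiquitinase Usp7 (0.21 ± 0.06, adjusted p = 0.0327), a call lost without any of 11 libraries (adjusted p 0.0516 to 0.105). In GMP numbers 1 and 2, 1 of the 15 rose, the acetyltransferase Kat5 (0.45 ± 0.11, adjusted p = 0.0116), and 5 fell, among them the ligase Cop1, listed as Rfwd2 (-0.42 ± 0.11, adjusted p = 0.0147), and the ribosomal protein Rpl11 (-0.51 ± 0.13, adjusted p = 0.0183). Without WT GMP 1, 0 of the 5 remained past the threshold (Rfwd2 0.0600 and Rpl11 0.133), and without WT GMP 2 there were 2 lower. With the library number as a block, 1 rose and 2 fell in CMP numbers 1 and 2, and 2 rose and 4 fell in GMP numbers 1 and 2. Beside these upstream counts stand the shares of all genes given above, 8.23% higher and 10.2% lower in CMP numbers 1 and 2. The higher counts of upstream genes in CMP and in GMP are near those shares. Cdkn2a, which encodes the Mdm2 inhibitor Arf, was among the 3 not tested, at 0 in 12 of the 15 libraries and at most 0.273 CPM in the others.

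The 14 cell cycle genes that p53 and p21 are known to repress through the DREAM complex were called lower in no KO comparison. In CMP numbers 1 and 2, 7 of the 14 rose and 0 fell (median 0.26), where 8.23% of all genes rose and 10.2% fell. In GMP numbers 1 and 2, 2 rose and 0 fell (median 0.12), where 11% of all genes rose and 9% fell, so the GMP count of 2 is near the share of all genes. The CMP count was 3 without KO CMP 1, and 4 without any of KO GMP 3, KO GMP 4, WT CMP 1 or WT CMP 2. In GMP it was 1 without any of WT CMP 1, WT CMP 2, WT GMP 1 or WT GMP 2. Cyclin B1 (Ccnb1) rose in both (0.51 ± 0.08, adjusted p = 6.36e-04 in CMP and 0.48 ± 0.10, adjusted p = 0.00355 in GMP). It held 83.3, 79.5, 92.7 and 94.3 CPM in WT CMP and 123, 109, 97.6 and 89.9 CPM in KO CMP, so KO CMP 1 and 2 were above all WT CMP libraries. Plk1 (0.37 ± 0.08, adjusted p = 0.00496), Top2a (0.33 ± 0.07, adjusted p = 0.00520) and Aurkb (0.28 ± 0.07, adjusted p = 0.0154) followed in CMP, and the call for Aurkb was lost without KO CMP 1 (0.0520) or WT CMP 2 (0.108). Top2a in KO CMP 1 and 2 was above all WT CMP libraries. Plk1 in KO CMP 1 and 2 (74.3 and 66.1 CPM) was near WT CMP 3 and 4 (71.8 and 74.1 CPM). Aurkb in KO CMP 1 and 2 (103.8 and 103.4 CPM) was below WT CMP 3 and 4 (120.3 and 125.8 CPM). A lower WT level in numbers 1 and 2 thus enters the rises of Plk1 and Aurkb. In numbers 3 and 4, 0 of the 14 passed in CMP or GMP, by DESeq2 or at an unadjusted p under 0.05 either. Ccnb1 and Cdkn1a were thus both highest, among the CMP libraries, in KO CMP 1 and 2. In WT, 10 of the 14 were higher in GMP than in CMP and 0 lower (11.3% and 14.2% of all genes), led by Cdk1 (0.60 ± 0.09, adjusted p = 4.75e-04).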

How the data were processed

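RNA was measured in 15 libraries of sorted bone marrow progenitors, in 4 groups of 4, 4, 4 and 3. Low-input cDNA was made with a SMARTER kit, per the labels' protocols, and HISAT and the mouse build mm10 are named in the submitters' processing notes. No source used here gives the counting tool, its strand setting or the annotation. The authors deposited 1 table of estimated counts per library, with gene symbols. Values were whole numbers but 38.0% of the 40915 values from 1 to 40 were multiples of 4 (25% if evenly spread), what a unit stands for is not known, and counts divided by 4 were an alternative. Totals were 61278415 to 120299543 units, and no 2 of the 105 library pairs were identical.

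Counts were tested as deposited with edgeR 4.0.16 (R 4.3.3) quasi-likelihood fits, TMM scaling and filterByExpr over all groups, with Benjamini-Hochberg adjustment over 15181 genes and a threshold of 0.05. One fit held the 4 groups (11 residual degrees of freedom), and another held the groups split into numbers 1 and 2 and numbers 3 and 4 (7 residual degrees of freedom). No source used here says what the numbers stand for. Scripts were tested on simulated data. The members, the lists and the split by number were chosen with earlier results of these data known, and every member was named, with values in full for Trp53, Mdm2, Cdkn1a and each member called in a KO comparison. Other lists give the 4 genes of smallest p, or fewer. Same-numbered libraries of the compared groups deviated together from their group means, with r of 0.176 to 0.346 (KO and WT CMP), 0.127 to 0.181 (KO and WT GMP), 0.141 to 0.211 (WT CMP and GMP) and 0.326 to 0.419 (KO CMP and GMP). Over all such pairs the median r was 0.163, against 0.152 for another number of the same set and -0.164 between sets. The check thus parts the number sets, and hardly the numbers within a set. The number was also fitted as a replicate block. The pairing by number comes from the labels, not from a stated shared animal. Alternatives were DESeq2 1.42.0, other size factors, other low-count filters, the block and leaving out each library. Positions are from GENCODE M21 (GRCm38), and promoters from RefSeq (GRCm38.p6).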

Additional observations from a re-analysis of the deposited data

Results flagged for a closer look

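The KO effect of 6 members was larger in CMP numbers 1 and 2 than in CMP numbers 3 and 4, by the edgeR test of the difference itself. The sets were chosen with earlier results of these data known, so that test is no independent support for them. The differences, in log2 units, were 0.84 for Cdkn1a, 1.12 for Trp53inp1, 2.41 for Phlda3, 1.66 for Zmat3, 1.93 for Perp and 1.20 for Tnfrsf10b. For Dram1 the difference was -1.82. In GMP the same difference was 1.75 for Cdkn1a, 1.69 for Trp53inp1, 3.82 for Phlda3, 2.67 for Zmat3, 2.85 for Perp, 1.60 for Tnfrsf10b and 0.77 for Plk3. For Dram1 it was -1.31. For Eda2r in GMP it was 4.83, a value that depends on the prior count because WT GMP 1 holds no read of the gene. The numbers 1 and 2 hold the 3 KO libraries with high Xist, and the genotype cannot be told apart from what else marks them. The WT libraries enter these differences too. Between the WT CMP sets, Phlda3 differed by -2.39, Perp by -1.22, Zmat3 by -0.58, Cdkn1a by -0.51 and Dram1 by 0.83. Trp53inp1 and Tnfrsf10b were not called there. Phlda3 lay within 8.32 to 8.71 CPM in all KO CMP libraries.

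In 4 of the 93 groups of 4 libraries examined, 1 library lay far from the other 3, where chance alone gives about 1 in 20. The count is thus near what chance alone gives, and the 4 are listed for completeness. Bbc3 was 18.2 CPM in KO CMP 2 against 23.7 to 24.2 CPM in the other KO CMP libraries. Sesn1 was 40.9 CPM in WT GMP 1 against 32.1 to 32.9 CPM. Fas was 1.73 CPM in KO CMP 1 against 1.21 to 1.22 CPM. Ppm1d was 35.4 CPM in WT CMP 1 against 33.6 to 33.9 CPM.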

How the results depend on the processing

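No member changed direction while past the threshold under any alternative run. DESeq2 called more members: 2 higher and 1 lower for KO against WT in CMP (0 by edgeR), 16 higher in CMP numbers 1 and 2 (10 by edgeR), 1 higher in CMP numbers 3 and 4 (0 by edgeR), 7 lower in GMP against CMP in KO (4 by edgeR) and 2 lower for the CMP difference between sets (1 by edgeR). The last was also 2 without a low-count filter and with the replicate block, Apaf1 being added. GMP against CMP in KO had 8 lower with the replicate block and 7 without the 3 libraries with high Xist. Apart from the calls named in the report, the block changed no other call of a member. The WT contrasts between number sets could not be fitted with it. Leaving out 1 library at a time gave 1 to 2 lower members for the CMP difference between sets, 3 to 9 for GMP against CMP in KO, 2 to 4 higher and 4 to 10 lower for WT CMP between sets, and 0 to 2 higher and 5 to 11 lower for WT GMP between sets. For WT CMP the 4 higher came without WT CMP 3. For WT GMP the 0 higher came without WT GMP 2 or 3, and 2 without WT CMP 1 or 2. Over all genes, DESeq2 called 133 higher and 227 lower for KO against WT in CMP, where edgeR called 0, and 48 and 12 in GMP. It called 14.1% of all genes lower for GMP against CMP in KO (10.5% by edgeR). In CMP numbers 1 and 2, alternatives that kept every library gave 1144 to 1784 genes higher (1249 in the main fit). For the CMP difference between sets they gave 613 to 867 lower (697). A changed member count therefore need not be particular to these genes. Depth limits Eda2r, Phlda3 and Ptpn14 in WT GMP, and the 1 KO library limits GMP numbers 1 and 2.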

Other observations

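The region between Trappc1 and Trp53 on chromosome 11 holds 10 protein-coding genes over 255 kb, of which 8 were tested. In CMP 0 of the 8 were called by edgeR for KO against WT in numbers 1 and 2, and likewise 0 in numbers 3 and 4 (0 by DESeq2 and 0 at an unadjusted p under 0.05 in both). In GMP numbers 1 and 2, Chd3, a chromatin remodeller, was higher and Naa38, a subunit of an N-terminal acetyltransferase, was lower, with log2 fold changes of 0.75 (adjusted p = 0.0119) and -0.78 (adjusted p = 0.0256), and in GMP numbers 3 and 4 the count was 0. Numbers 1 and 2 of GMP hold 1 KO library.

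The DREAM-repressed cell cycle genes also differed between the WT libraries. In WT CMP, 6 of the 14 were lower in numbers 1 and 2 than in numbers 3 and 4 and 0 were higher (10.6% and 12.3% of all genes), and in WT GMP 1 was lower and 0 higher. The lower count in WT CMP was 2 without WT CMP 2 or 4 and 3 without WT CMP 1, and in WT GMP it was 0 on leaving out any of the 4 WT GMP libraries and 3 by DESeq2.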
